A study of Mus musculus with 8 samples.

Results

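Calcium cycling in heart muscle was followed through 10 genes: Atp2a2, Pln, Ryr2, Casq2, Casq1, Trdn, Hrc, Cacna1c, Cacnb2 and Slc8a1. They were chosen by name, for their place in the handling of calcium, out of 18193 genes that the arrays measured, with earlier results of these data known. Total RNA came from whole unstressed hearts of 4 WT mice and 4 SRC-2 KO mice, with 1 heart on each Affymetrix mouse expression array. SRC-2, steroid receptor coactivator 2, is the product of Ncoa2 and helps nuclear receptors and other transcription factors to activate their targets. The KO mice carry a germline disruption of Ncoa2 in every cell type, and the WT mice are their littermates. All 8 mice were males of the strain C57B/6Jx129Sv that were fed ad lib, and the labels give their age as 10 to 12 weeks while the methods give a wider range. A whole heart holds atria, ventricles, vessels and connective tissue, so RNA from every cell type contributed to each value. In such bulk RNA, fewer cells of a type and less RNA per cell cannot be told apart.

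In a heart muscle cell, an action potential opens the L-type calcium channel, and the small calcium influx triggers a much larger release from the sarcoplasmic reticulum through the ryanodine receptor. Calcium then binds troponin C and the cell contracts. Relaxation follows when the SERCA pump returns calcium to the sarcoplasmic reticulum and the sodium-calcium exchanger removes the remainder across the surface membrane. Within the store, calcium is buffered by calsequestrin, which triadin and junctin anchor to the release channel. In failing hearts this cycle is known to slow, and the ratio of the pump to its inhibitor phospholamban is a classic measure of it.

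Each gene was read by the probeset with the highest mean signal over the 8 arrays, where a probeset is a group of short probes that reads one transcript. The authors' signals are on a linear scale with the trimmed mean of every array set to the same value, and fold changes are differences of mean log2 signal, KO minus WT. KO was compared with WT in limma over all 18193 genes. The common-variance fit draws the spread of every gene toward a single value, and the trended fit draws it toward that of genes with a similar signal. A gene was called at a Benjamini-Hochberg adjusted p under 0.05. Median array signals lay between 77.0 and 87.3 among WT hearts and between 75.6 and 83.2 among KO hearts. Ncoa2 itself, read by 1435233_at, fell to 249.8 ± 16.2 (SD, n = 4) in KO hearts from 1934 ± 230.5 (SD, n = 4), a log2 fold change of -2.95 ± 0.12 (SE) with an adjusted p of 5.9e-04 in the common-variance fit of limma. Its 4 KO hearts lay between 235 and 267 and its WT hearts between 1660 and 2134, so each array matched its label. The 8 cardiomyocyte markers, among them Myh6, Tnnt2 and Actc1, summed to signals between 411295 and 522503 in the WT hearts and between 473126 and 600765 in the KO hearts, with none near background.

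Mean differences between genotypes were small for 9 of the 10 calcium cycling genes and larger for Casq1. Of the 10 genes, 9 had a higher mean log2 signal in SRC-2 KO hearts, by 0.019 to 0.26, and 1, Casq1, had a lower one, by a log2 fold change of -0.89. In the background of all genes, 47% had a higher mean in KO, but in the brightest 10% of genes, where 6 of these genes lie, the share was 68.8%. None of the 10 was called by limma. The common-variance fit called 0.022% of all genes and the trended fit 0.379%. At an unadjusted p under 0.05, 0 of the 10 passed in the common-variance fit, against 10.1% of all genes. In the trended fit Cacna1c passed with a higher value, as did 5.36% of all genes, and Casq1 with a lower one, as did 7.28%. The random variance model test and the test on each gene's own variance also called 0 of them.

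**Figure D1:**
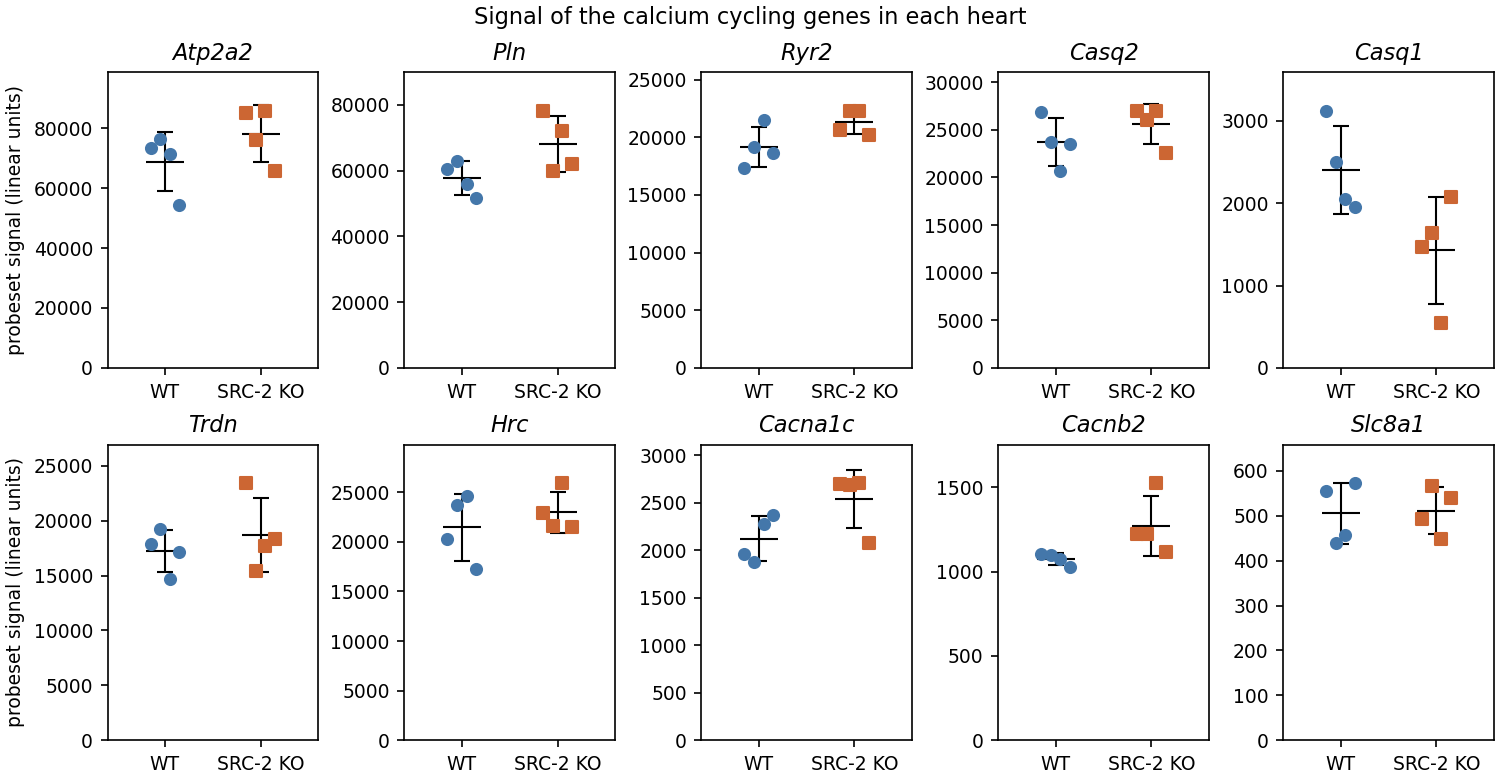
Signal of the brightest probeset of each calcium cycling gene in each heart, on a linear axis from 0; blue circles are WT hearts (n = 4), orange squares SRC-2 KO hearts (n = 4), and black lines the mean ± SD. The genotypes overlap for every gene except Cacnb2, and Casq1 is the only gene with the lower mean in KO.

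The first step of relaxation is uptake into the sarcoplasmic reticulum. Atp2a2 encodes SERCA2, the calcium pump of that membrane. Its signal (1416551_at) in the WT hearts was 73267, 76370.1, 71273 and 54380.2, and in the KO hearts 85022, 76042, 85767 and 65612. One WT heart, replicate 4, was well under the others, and the genotypes overlapped. The KO mean of 78111 ± 9432 (SD, n = 4) stood against a WT mean of 68823 ± 9854 (SD, n = 4), a log2 fold change of 0.19 ± 0.15 (SE) with a 95% interval of -0.18 to 0.55. The limma adjusted p was 0.704 with a common variance and 0.645 with a trend, the order in which both are given from here on. Without WT replicate 4 the log2 fold change was 0.077.

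Pln encodes phospholamban, the small membrane protein that inhibits SERCA2 until it is phosphorylated. Its signal (1460332_at) was 60530.1, 63057, 55807 and 51588 in the WT hearts and 78192, 59974, 72144 and 62091 in the KO hearts. KO replicates 1 and 3 lay above all WT hearts and the other KO hearts lay within the WT range. KO exceeded WT by 0.23 ± 0.13 (SE) on the log2 scale, with a 95% interval of -0.07 to 0.54 and limma adjusted p-values of 0.585 and 0.491. All 3 Pln probesets had higher means in KO, by 0.23 to 0.28 on the log2 scale. Within a heart, the log2 signal of Pln minus that of Atp2a2 averaged -0.25 ± 0.12 (SD, n = 4) among WT hearts. It averaged -0.20 ± 0.12 (SD, n = 4) among KO hearts. The change of 0.05 ± 0.08 (SE) had a p of 0.629 in a two-sided exact permutation test over the 8 hearts. A difference within a heart is free of a constant factor for each array but not of quantile normalization, under which it was 0.062.

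Atp2a2 is read by 6 probesets and they did not point the same way. The 3 bright ones had higher means in KO, with log2 fold changes of 0.19 for 1416551_at, 0.20 for 1452363_a_at and 0.18 for 1427250_at. The 3 dim ones had lower means, with log2 fold changes of -0.13 for 1427251_at, -0.71 for 1437797_at and -1.44 for 1443551_at. At 1443551_at the WT hearts read 41.3, 79.1, 66.2 and 89.2 and the KO hearts 38.4, 46.8, 45.1 and 4.34, signals at the dim end of the arrays. None of the 6 was called when all 45037 probesets were fitted, of which 0.0111% were called with a common variance and 0.173% with a trend. The deposited table does not give the part of the transcript that each probeset reads.

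The release unit of the sarcoplasmic reticulum is built on Ryr2, the ryanodine receptor that lets stored calcium out. The Ryr2 signal (1450123_at) was 17345, 19154, 21524 and 18595 in the WT hearts and 20657, 22292, 22262 and 20229 in the KO hearts. The KO hearts were close together and above 3 of the WT hearts, while WT replicate 3 lay among them. The KO mean was higher by 0.16 ± 0.11 (SE) on the log2 scale, with limma adjusted p-values of 0.641 and 0.530 and an exact permutation p of 0.0857 (two-sided, 4 against 4 hearts, smallest possible p 0.0286).

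Casq2 is the cardiac calsequestrin, which buffers calcium next to the release channel, and Casq1 is its paralog of fast skeletal muscle. The windows before their transcription starts are shown because the calsequestrins differed in direction in the values as deposited. Neither was called, and the direction of Casq2 depended on the scaling of the arrays. Letters run 5′ to 3′ on the strand of the gene, over 250 bases that end at the start of the RefSeq transcript, in the build GRCm38.p6, and capitals mark a MEF2 motif found by a script.
Casq1, chr1:172219896-172220145, minus strand: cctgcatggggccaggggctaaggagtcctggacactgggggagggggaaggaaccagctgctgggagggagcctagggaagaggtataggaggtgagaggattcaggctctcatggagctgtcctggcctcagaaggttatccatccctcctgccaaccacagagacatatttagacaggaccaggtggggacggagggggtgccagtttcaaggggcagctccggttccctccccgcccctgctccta
Casq2, chr3:102086165-102086414, plus strand: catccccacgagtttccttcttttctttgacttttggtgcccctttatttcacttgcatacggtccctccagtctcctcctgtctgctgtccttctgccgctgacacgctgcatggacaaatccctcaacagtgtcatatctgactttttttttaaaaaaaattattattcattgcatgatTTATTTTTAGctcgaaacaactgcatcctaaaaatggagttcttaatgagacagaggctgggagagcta
MEF2 is a transcription factor of muscle. The motif in the Casq2 window begins 69 bases before the start, and the Casq1 window holds no match. On both strands, the MEF2 motif occurs in 2.92% of 32851 RefSeq windows of the same length. These are matches of letters and not evidence of binding.

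The Casq2 signal (1422529_s_at) was 26915, 23686, 20699 and 23519 in the WT hearts and 26918, 26065, 26987 and 22579 in the KO hearts. The ranges overlapped, and WT replicate 1 read nearly the same as KO replicates 1 and 3. A log2 fold change of 0.12 ± 0.12 (SE) had limma adjusted p-values of 0.766 and 0.714. It was 0.052 without WT replicate 3, and 0.18 without either WT replicate 1 or KO replicate 4. Its single probeset is of the kind that can also bind transcripts of related genes.

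Casq1 showed the largest difference of the 10. Its signal (1422598_at) was 3119.7, 2497, 2045 and 1954 in the WT hearts and 1461, 1634, 539.2 and 2077 in the KO hearts. KO replicate 3 was far under every other heart, whereas KO replicate 4 lay above 2 of the WT hearts. The WT mean was 2404 ± 532.8 (SD, n = 4) and the KO mean 1428 ± 646.6 (SD, n = 4). The log2 fold change was -0.89 ± 0.42 (SE) and its 95% interval, -1.87 to 0.10, held 0. The limma adjusted p was 0.532 and, with a trend, 0.267 (unadjusted 0.017). Without KO replicate 3 the log2 fold change was -0.47, and without KO replicate 4 it was -1.12, with a trended adjusted p of 0.0957.

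Casq1 was also compared with Casq2 within each heart, as the pair shares the array and its scaling. The log2 signal of Casq1 minus that of Casq2 averaged -3.32 ± 0.20 (SD, n = 4) over the WT hearts and -4.32 ± 0.94 (SD, n = 4) over the KO hearts. The change of -1.001 ± 0.48 (SE) had a two-sided exact permutation p of 0.0571 and an adjusted p of 0.286 over the 5 pairs compared. Without KO replicate 3 the change was -0.56. The WT hearts spanned -3.59 to -3.11 and the KO hearts -5.65 to -3.44, so they overlapped.

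The 10 fast skeletal muscle markers summed to between 627 and 1324 in the WT hearts and between 396 and 667 in the KO hearts. These ranges overlapped. Without Tnni2, the fast troponin I, the other 9 summed to between 310.4 and 599.2 in WT and between 337.3 and 503.7 in KO. The lower sums in KO thus rested mainly on Tnni2. Of the 10 markers, 6 had lower and 4 higher means in KO, and 6 had a mean signal under 50. Tnni2 was called lower in limma's trended fit, as 0.258% of all genes were, at a log2 fold change of -2.10 and an adjusted p of 0.0367. The 8 atrial myocyte markers all had lower means in KO. Their summed signal was 223655, 267976, 224679 and 160670 in the WT hearts and 199526, 80366, 18842 and 57379 in the KO hearts. KO replicate 3 was lowest in both Casq1 and the atrial sum. KO replicate 1, with an atrial sum in the WT range, read 1461 in Casq1. KO replicates 2 and 4, with atrial sums under that range, read 1634 and 2077 in Casq1. The summed signal of the 5 smooth muscle markers was higher in every KO heart, at 29478 to 45475 against 21955 to 26125. Most of that sum was Acta2, with means of 21179 in WT and 35604 in KO. Acta2 was called higher in limma's trended fit (0.74, adjusted p = 0.0422). Of the 5 markers, 2 had higher and 3 lower means in KO, with a mean log2 difference of -0.22. The part of these tissues in the Casq1 values was not tested.

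Trdn encodes triadin, which ties calsequestrin to the ryanodine receptor. Its brightest probeset, 1451801_at, read 17884, 19232, 14691 and 17186 in the WT hearts and 23425, 15450.4, 17704 and 18353 in the KO hearts. KO replicate 1 was above all WT hearts and the other KO hearts were within the WT range. Its log2 fold change of 0.11 ± 0.16 (SE) had limma adjusted p-values of 0.832 and 0.779. It was 0.034 without WT replicate 3, -0.0037 without KO replicate 1 and 0.20 without KO replicate 2. Triadin is made in several splice forms and is read by 6 probesets, 3 with higher and 3 with lower means in KO. The highest was 1426144_x_at, at a log2 fold change of 0.38, with WT hearts at 3357, 3463, 3411 and 2869 and KO hearts at 5241, 3902, 5219 and 3034. KO replicates 1, 2 and 3 exceeded all WT hearts and KO replicate 4 did not. This probeset is of the kind that can also bind transcripts of related genes. The lowest was 1426134_at, at -0.23, with WT hearts at 3442, 3720.5, 3009 and 3272 and KO hearts at 3454, 2544, 2689 and 2800.1. Here the same KO replicate 1 stood in the WT range and the other KO hearts below it. None of the 6 was called over all probesets.

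**Figure D2:**
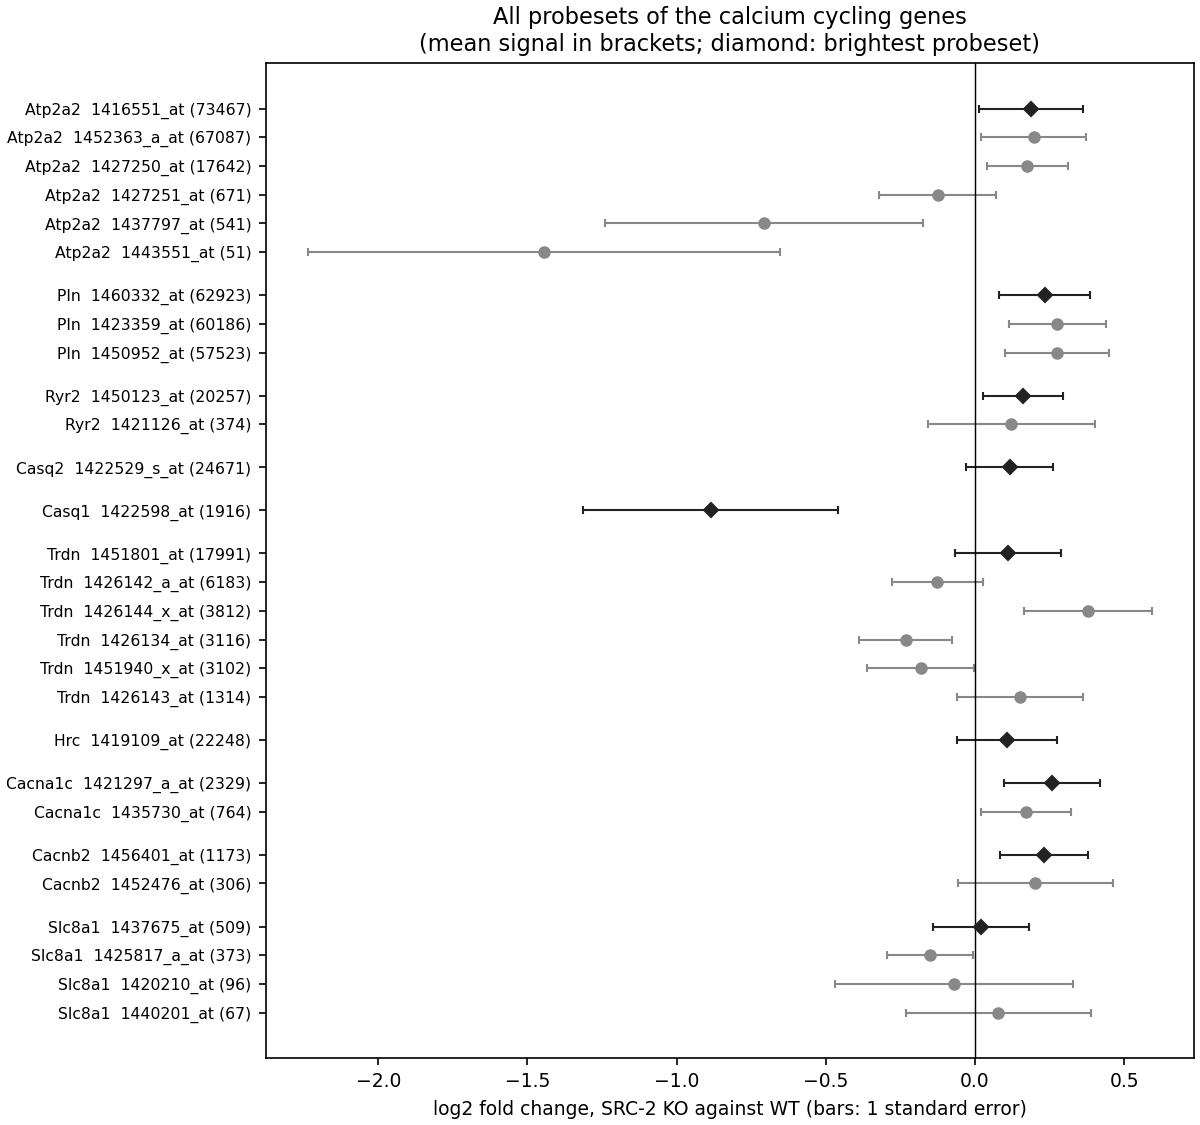
Log2 fold change, KO minus WT, of all 28 probesets of the 10 genes, with bars for the standard error in the common-variance fit over all probesets. Of them 19 have a higher and 9 a lower mean in KO, and Atp2a2, Slc8a1 and Trdn have probesets on both sides of 0.

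Hrc encodes the histidine-rich calcium-binding protein of the sarcoplasmic reticulum lumen, which binds both triadin and the pump. Its signal (1419109_at) was 20262, 23772, 24656 and 17288 in the WT hearts and 22885, 21654, 25940.3 and 21526 in the KO hearts. KO replicate 3 lay above the WT range and the other KO hearts within it. The genotypes differed by 0.11 ± 0.15 (SE) on the log2 scale, with limma adjusted p-values of 0.823 and 0.769. The difference was 0.0076 without WT replicate 4, 0.048 without KO replicate 3 and 0.18 without WT replicate 3. Ryr2 and Casq2, measured in the same heart, had a log2 difference, Casq2 minus Ryr2, of 0.31 ± 0.28 (SD, n = 4) over the WT hearts and of 0.26 ± 0.09 (SD, n = 4) over the KO hearts, a change of -0.04 ± 0.15 (SE) with an exact permutation p of 0.771.

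Calcium entry begins at the surface membrane. Cacna1c encodes the pore-forming subunit of the L-type channel. Its signal (1421297_a_at) was 1962, 1878, 2276 and 2367 in the WT hearts and 2691, 2679.7, 2705 and 2074 in the KO hearts. Of the KO hearts, 3 read nearly the same and above all WT hearts, and KO replicate 4 lay inside the WT range. From 2121 ± 237.4 (SD, n = 4) in WT, the mean was 2537 ± 309 (SD, n = 4) in KO, a log2 fold change of 0.26 ± 0.14 (SE) with a 95% interval of -0.07 to 0.59. The limma adjusted p was 0.579 and, with a trend, 0.365 (unadjusted 0.0399). Without KO replicate 4 the log2 fold change was 0.35, and the trended adjusted p was 0.106. A second probeset, 1435730_at, also had a higher mean, by 0.17.

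Cacnb2 encodes an auxiliary beta subunit that carries the channel to the membrane and tunes its gating. Its signal (1456401_at) was 1105, 1096, 1075 and 1026 in the WT hearts and 1221, 1222, 1525 and 1115 in the KO hearts. It was the one gene of the 10 with all KO hearts above all WT hearts, a pattern shown by 3.1% of all genes, but the lowest KO heart exceeded the highest WT heart by little. The means were 1075 ± 35.2 (SD, n = 4) and 1271 ± 176.8 (SD, n = 4), and KO replicate 3 was the highest. This made a log2 fold change of 0.23 ± 0.12 (SE), with limma adjusted p-values of 0.571 and 0.403. Without KO replicate 3 it was 0.14. The exact permutation p was 0.0286 (two-sided), the smallest that 4 against 4 hearts can give, and is not adjusted over all genes. Its dimmer probeset, 1452476_at, had a higher mean by 0.20 but overlapped, at 222.4 to 345.5 in the WT hearts and 235.2 to 456.8 in the KO hearts. Within a heart, Cacnb2 minus Cacna1c changed by -0.03 ± 0.13 (SE) with an exact permutation p of 0.8.

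Slc8a1 encodes the sodium-calcium exchanger, the main route of calcium out of the heart cell. Its signal (1437675_at) was 554.7, 439.3, 456.7 and 573.1 in the WT hearts and 492, 566.9, 447.4 and 539.4 in the KO hearts. The genotypes were intermixed, and the highest and the lowest heart were both WT. The log2 difference was 0.019 ± 0.14 (SE), with a 95% interval of -0.31 to 0.35 and limma adjusted p-values of 0.969 and 0.971. Of its 4 probesets, 2 had higher and 2 lower means, the lowest being 1425817_a_at at -0.15. Relative to Atp2a2 in the same heart, Slc8a1 changed by -0.17 ± 0.24 (SE) with an exact permutation p of 0.514. That change was 0.0052 without WT replicate 4 and 0.091 under quantile normalization. The adjusted p over the 5 within-heart pairs was 0.8 for each pair other than Casq1 and Casq2.

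The bright genes of the arrays had higher signals in KO, 6 of the calcium cycling genes among them. The median log2 fold change was 0.14 for the 10 genes, -0.026 for all genes, -0.014 for genes above the median signal and 0.088 for the brightest 10%. The 6 genes among those, Atp2a2, Pln, Ryr2, Casq2, Trdn and Hrc, ranged from 0.11 to 0.23 with a median of 0.14. Under quantile normalization, which gives every array the same distribution, the 6 ranged from -0.0029 to 0.06, the median of the brightest 10% was 0.030 and Atp2a2 changed sign to -0.0029. Median centring moved the 6 the other way, to 0.17 to 0.30 with a median of 0.20. Cacna1c at 0.25, Cacnb2 at 0.25 and Casq1 at -0.87 kept their size under quantile normalization. The brightest probeset of an array read 72801 in WT replicate 4 and 124739 in KO replicate 1, and WT replicate 4 was also the lowest heart for 4 of the 10 genes, Atp2a2, Pln, Hrc and Cacnb2.

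The 8 cardiomyocyte markers all had higher means in KO, by a mean of 0.14 ± 0.09 (SE, exact permutation p = 0.2, two-sided, n = 4 against 4). Lower means were found for 7 of 7 fibroblast markers (mean -0.62), 5 of 5 macrophage markers (-0.31) and 5 of 6 endothelial markers (-0.22). Smooth muscle markers were mixed, 3 lower and 2 higher. Both measured markers had higher mean log2 signals for adipocytes (mean 0.36) and for red blood cells (0.55). Among the latter, Hba-a1 was at background, with mean signals of 13.4 in WT and 9.9 in KO, and Alas2 was at 0.94. The adipocyte marker Adipoq overlapped, at 309.2 to 646.1 in the WT hearts and 282.5 to 1412 in the KO hearts. The part of cell composition in the values of the calcium cycling genes was not tested. With each heart centred on the mean log2 signal of the cardiomyocyte markers, 5 of the calcium cycling genes had higher and 5 lower means. The median was -0.0053, and this setting was chosen after seeing the data. Pln was then at 0.09 ± 0.05 (SE) with an exact permutation p of 0.114, Atp2a2 at 0.043 and Ryr2 at 0.017, while Casq2, Trdn and Hrc moved to -0.028, -0.034 and -0.036. The spread of Atp2a2 over the 8 hearts narrowed from an SD of 0.21 to 0.09 on the log2 scale and that of Pln from 0.19 to 0.08, so both followed the markers from heart to heart. All 8 markers lay in the brightest 10% of genes, as Atp2a2 and Pln did. This centring therefore cannot tell cardiomyocyte content from the scale of an array at its bright end, and neither was tested. Cacna1c was at 0.11, Cacnb2 at 0.09, Slc8a1 at -0.12 and Casq1 at -1.03. The directions of Atp2a2, Casq2, Trdn, Hrc and Slc8a1 therefore depended on the scaling.

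**Figure D3:**
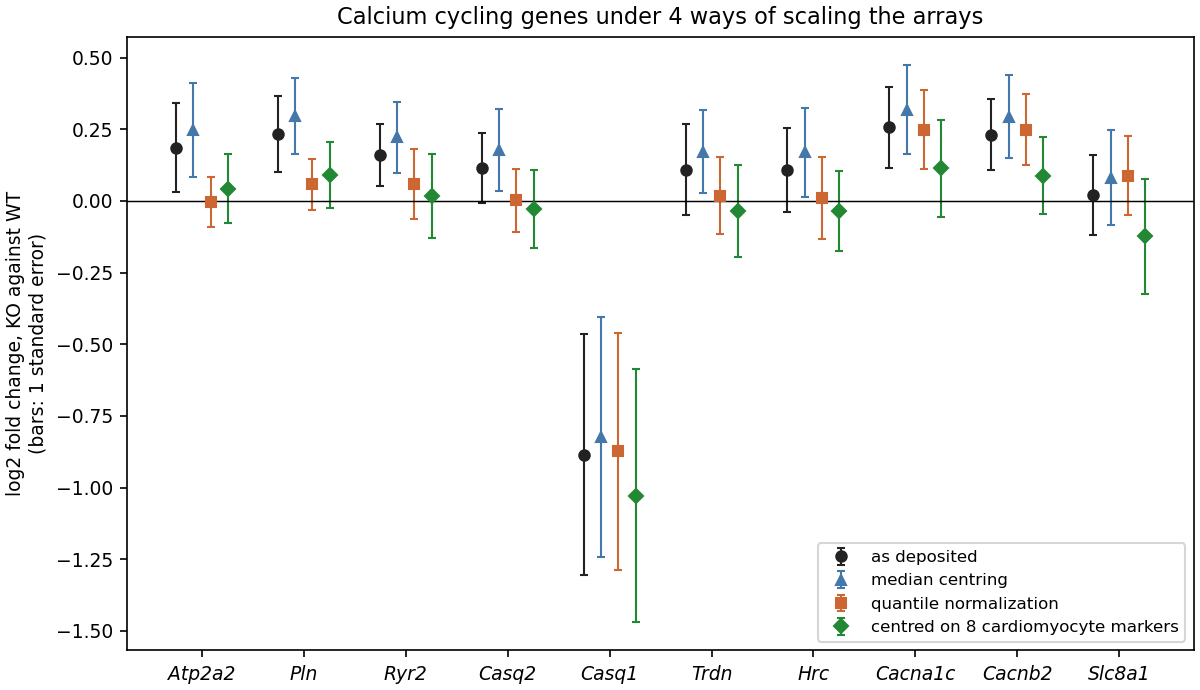
Log2 fold change, KO minus WT, of the 10 calcium cycling genes as deposited and after 3 other scalings of the arrays, with bars for the standard error. The bright genes shift away from 0 under median centring and toward 0 under quantile normalization and under centring on cardiomyocyte markers, and Casq1 stays between -0.82 and -1.03.

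Other genes of calcium handling were taken from 9 lists by role, which hold 98 measured genes apart from the 10. Of these 98, 53 had higher and 45 lower means in KO, with a median log2 fold change of 0.039 against -0.026 for all genes. With a common variance limma called 0 of them, and 6 higher and 7 lower ones had an unadjusted p under 0.05, beside 10.1% of all genes. With a trend it called 1, Tmem38b, where 0.121% of all genes were called higher, and 8 higher and 6 lower ones had an unadjusted p under 0.05, beside 5.36% and 7.28% of all genes. All KO hearts lay above all WT hearts for 3 of the 98 and below them for 4, beside 3.1% and 3.72% of all genes. Each gene is given by its brightest probeset, and of 24 genes named from these lists 17 have several probesets, which conflict in sign for 9.

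Tmem38b encodes TRIC-B, a potassium channel of the sarcoplasmic and endoplasmic reticulum whose current balances the charge of released calcium. Its signal (1456544_at) was 1565, 1996, 1932 and 1908 in the WT hearts and 2571, 2851, 3283 and 2549 in the KO hearts. All KO hearts were clear of all WT hearts. The mean was 1850.2 ± 193.9 (SD, n = 4) for WT and 2814 ± 341.6 (SD, n = 4) for KO, a log2 fold change of 0.60 ± 0.14 (SE) with limma adjusted p-values of 0.318 and 0.0367. A pair of dimmer probesets gave 0.52 for 1424700_at and 0.60 for 1449677_s_at, each with no overlap between genotypes, and 1419949_at, with means of 45.5 and 57.2, gave 0.05. With each heart left out in turn, the trended adjusted p ran from 0.0189 without KO replicate 4 to 0.100 without KO replicate 3, and it was under the threshold without KO replicate 4 alone. Its log2 fold change ran from 0.52 to 0.65 over these fits.

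**Figure D4:**
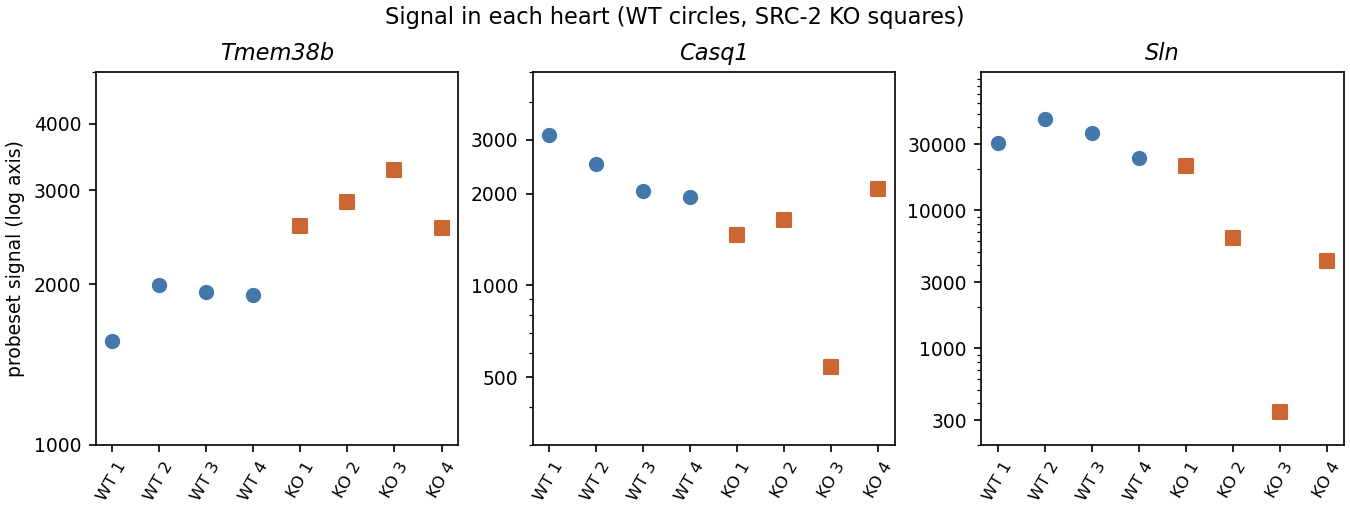
Signal of Tmem38b, Casq1 and Sln in each heart, on log axes; circles are WT and squares SRC-2 KO hearts. Tmem38b is higher in all 4 KO hearts, Casq1 overlaps between genotypes, and Sln is lower in all 4 KO hearts with a wide spread among them.

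In the uptake list, 5 of 10 measured genes had higher and 5 lower means, and none was called. The largest difference was that of Sln, sarcolipin, a SERCA inhibitor of the atria. Its signal was 30692, 46212, 36091 and 23815 in the WT hearts and 20862, 6285, 347.6 and 4271 in the KO hearts. Every KO heart was below every WT heart, as for 3.72% of all genes, but KO replicate 1 lay close to the lowest WT heart and KO replicate 3 far under the rest. Sln differed by -3.15 ± 1.14 (SE) on the log2 scale, with limma adjusted p-values of 0.453 and 0.150. Sln is also one of the 8 atrial markers, all of which had lower means in KO, while the 4 ventricular markers all had higher means. The part of the atrial share of the tissue in the Sln values was not tested. Calr, calreticulin, a calcium buffer of the endoplasmic reticulum, had KO hearts at 8147 to 9324 and WT hearts at 10048 to 11843, with a log2 fold change of -0.30 and adjusted p-values of 0.437 and 0.162. Atp2a1, the SERCA pump of fast skeletal muscle, was dim, with means of 127.4 in WT and 66.2 in KO.

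The release list held 18 measured genes, 11 with higher and 7 with lower means. Among 18 measured channel genes of the surface membrane, 8 had higher and 10 lower means, and none was called. With Cacna1c, the smallest p-values of the trended fit in that list belonged to the alpha2delta subunits Cacna2d3, at a dim 90.8 in WT and 34.1 in KO, and Cacna2d2, at 347 in WT and 180.2 in KO. Their genotypes overlapped. Besides Slc8a1, the extrusion list held the plasma membrane calcium pumps Atp2b2, Atp2b3 and Atp2b4, whose mean signals were 76.2, 42.2 and 38 in WT and 20.3, 72.5 and 28 in KO, at the dim end of the arrays. The pump Atp2b1, named after its values were seen because it was bright, read 1553 in WT and 1557 in KO, and of its 7 genes 3 had higher and 4 lower means.

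Of the 19 kinases, phosphatases and anchors, 11 had higher and 8 lower means. Prkaca, the catalytic subunit of protein kinase A that phosphorylates phospholamban and the L-type channel complex, read 8677 to 9573 in the WT hearts and 10029 to 11154 in the KO hearts. Its log2 fold change was 0.25 ± 0.10 (SE), with no overlap between genotypes and limma adjusted p-values of 0.467 and 0.206, but its other probeset, 1450519_a_at, was at 0.053 with overlapping hearts. The brighter Prkaca probeset, 1447720_x_at, is of the kind that can also bind transcripts of related genes. Pde4d, a phosphodiesterase that degrades cyclic AMP near the release channel, read 1176 to 1513 in WT and 1517 to 2211 in KO, a bare separation, with adjusted p-values of 0.493 and 0.234. Camk2g, a subunit of calcium-calmodulin kinase, was at 0.28 with adjusted p-values of 0.494 and 0.249, and at 0.019 by 1423941_at, and its genotypes overlapped. None of the 19 was called.

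Calcineurin and the NFAT factors it activates were measured through 12 genes, 7 with higher and 5 with lower means. Nfatc1 had KO hearts at 292.4 to 433.9 and WT hearts at 434.3 to 526.1, with a log2 fold change of -0.36 and adjusted p-values of 0.479 and 0.359. Its dimmer probesets were mixed in sign, with 1447084_at at 1.07, 1417621_at at 0.16, 1425761_a_at at 0.07 and 1447085_s_at at -0.20. Nfatc4 was at -0.41, and Ppp3r1, the regulatory subunit of calcineurin, was at 0.14. Genes of mitochondrial calcium had 7 higher and 2 lower means, with Micu3 at 0.74 and the outer membrane channels Vdac1 at 0.29 and Vdac3 at 0.21. None of these was called. Store-operated entry had 2 higher and 5 lower means, with the entry channel Orai3 at -0.23, the store sensor Stim1 at -0.22 by its brighter probeset and 1.25 by 1436945_x_at (means of 103.2 and 242, no overlap), and Trpc6 too dim to read, at means of 13.3 in WT and 29.9 in KO. The dimmer Stim1 probeset is of the kind that can also bind transcripts of related genes.

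The myofilament list had higher means in KO in 8 of 8 genes, with a median of 0.20 and none called. Tpm1, tropomyosin, was at 0.27 by its brightest probeset but at -0.61 by 1423721_at and -0.45 by 1456623_at. Tnnc1, the calcium sensor troponin C, was at 0.25 and Tnnt2, troponin T, at 0.21. The hearts of all 3 overlapped at the brightest probeset. Tnnt2, Tnni3, Mybpc3 and Myl3 are also cardiomyocyte markers, whose median log2 fold change was 0.17, and Myl2 is a ventricular marker. The list is therefore not separate from these markers. All 8 genes also lay in the brightest group of genes used above, where 68.8% had a higher mean in KO.

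**Figure D5:**
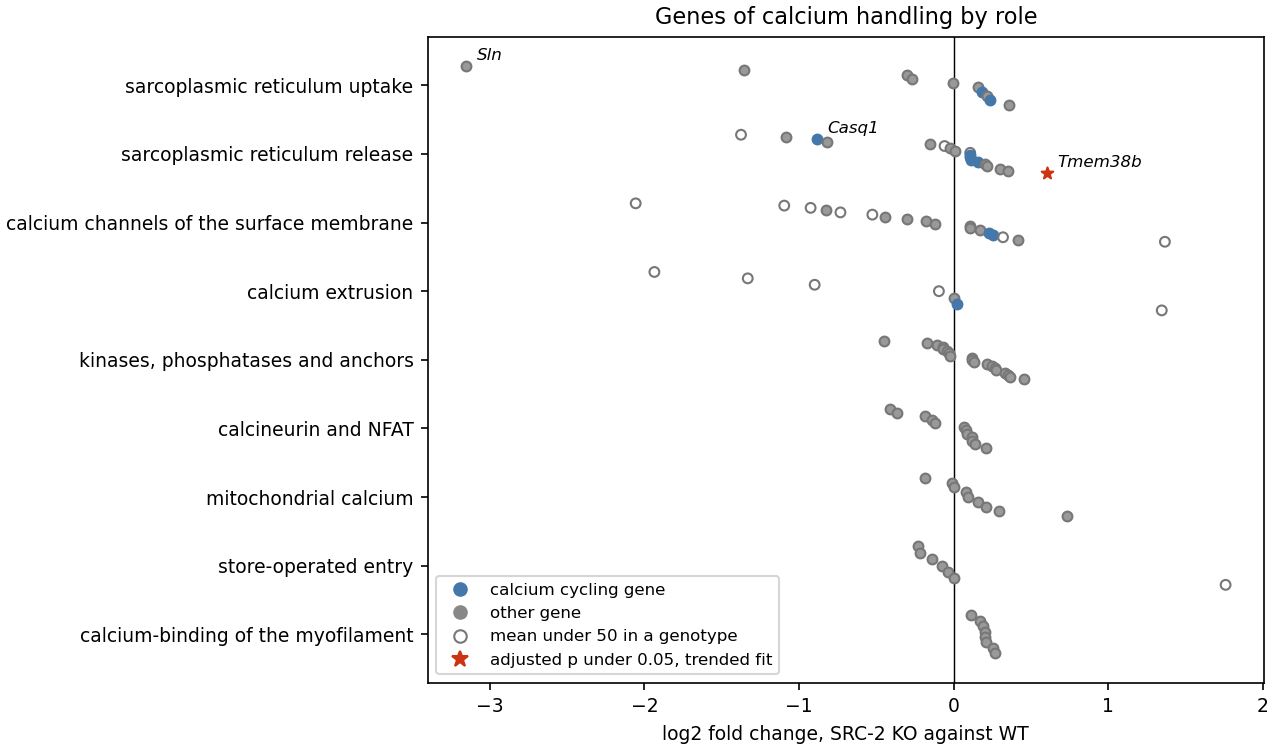
Log2 fold change, KO minus WT, of 108 measured genes in 9 lists of calcium handling; blue points are the calcium cycling genes, grey points other genes, open points genes with a mean signal under 50 in a genotype, and the red star the gene called in the trended fit. Most genes lie near 0, the wide spread belongs mainly to dim genes and Sln, and all 8 myofilament genes lie above 0.

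To describe which genes followed each calcium cycling gene over the 8 hearts, log2 signals were centred per gene and compared by their root-mean-square difference with 9095 genes above the median signal. Pln was nearest to Cycs, cytochrome c, at 0.025 against its own SD of 0.18, followed by Ndufc2, a subunit of respiratory complex I, at 0.034. Atp2a2 was nearest to Cox5a, a subunit of cytochrome c oxidase, at 0.035, followed by Tpt1 at 0.042. Ryr2 was nearest to Larp1 at 0.042 and Ate1 at 0.049. These distances are small beside the spread of the genes, and all genes share the same 8 arrays.

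Casq1 was nearest to Mybpc2, the myosin-binding protein C of fast skeletal muscle, at 0.264, and to Clcn5 at 0.268, beside a Casq1 SD of 0.71. Mybpc2 itself was not called, with a WT mean of 1049.9 ± 169.7 (SD, n = 4) and a KO mean of 610.4 ± 272.2 (SD, n = 4). The nearest genes were Chchd7 and Asb12 for Casq2, 1810013L24Rik and Fam168a for Cacna1c, Ppp2r1a and Pink1 for Cacnb2, Ripor1 and Otulin for Slc8a1, Med10 and Hcfc1r1 for Trdn, and 2700097O09Rik and Blzf1 for Hrc. Their distances ran from 0.039 for Ppp2r1a to 0.081 for Hcfc1r1. KO replicate 3 was the highest heart for 5 of the 10 genes, Atp2a2, Casq2, Hrc, Cacna1c and Cacnb2, and the lowest for Casq1.

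The windows before the start of Pln and Ryr2 are shown for the other motifs searched, in the form used above for the calsequestrins.
Pln, chr10:53337436-53337685, plus strand: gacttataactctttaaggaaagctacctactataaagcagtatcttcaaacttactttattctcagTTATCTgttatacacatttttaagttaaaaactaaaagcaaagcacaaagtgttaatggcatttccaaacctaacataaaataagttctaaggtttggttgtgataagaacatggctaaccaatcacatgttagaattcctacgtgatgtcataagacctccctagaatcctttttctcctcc
Ryr2, chr13:12106946-12107195, minus strand: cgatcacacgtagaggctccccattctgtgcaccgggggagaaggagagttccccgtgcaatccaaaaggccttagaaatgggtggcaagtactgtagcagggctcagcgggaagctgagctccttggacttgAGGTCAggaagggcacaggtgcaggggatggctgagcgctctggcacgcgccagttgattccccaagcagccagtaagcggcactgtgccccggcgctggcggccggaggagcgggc
In Pln the capitals mark the reverse complement of the GATA motif, AGATAA, beginning 183 bases before the start. In Ryr2 they mark the nuclear receptor half-site, AGGTCA, beginning 117 bases before it. These motifs, the E-box with the letters CACGTG, MEF2 and the SRF CArG box were searched on both strands, and they can overlap. RefSeq windows were at hand for 8 of the 10 genes, 11 windows in all. The half-site was found in 1 of the 11 windows and in 14.0% of all 32851 windows, and the GATA motif in 2, those of Pln and Slc8a1, against 9.99%. The E-box and the CArG box, found in 6.02% and 1.47% of all windows, had no match in the 11. A match describes letters and not binding of a factor, and no match says only that the letters are not in this window.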

How the data were processed

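Total RNA from 4 WT and 4 SRC-2 KO hearts was hybridised to Affymetrix arrays, 1 heart per array. Per the submitters' processing notes, the tools were Partek, RMA and Affymetrix Expression Console (versions not given in the sources used here). The deposited values are linear intensities between 0.219 and 124739, and the mean of each array was 500 once the lowest and highest 2% of probesets were removed. Distributions differ between arrays, unlike RMA output, which the design had assumed. The deposited intensities were put on the log2 scale without a floor or renormalization, and the limma test was kept.

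Of 45101 probesets, 64 are controls, 9211 were unnamed in the platform annotation used and 932 named several genes. The 34945 with 1 gene gave 18193 genes, 18145 with a current symbol in the RefSeq gene table, each read by its brightest probeset (mean of 8 arrays). The genotypes were compared with limma 3.58.1 in R 4.3.3 (lmFit and eBayes, two-sided, Benjamini-Hochberg over all genes, threshold 0.05), in a common-variance fit (main) and a trended fit. All probesets were fitted separately. Within-heart differences and single values were tested by exact two-sided permutation of the 8 hearts. The fits were tested on simulated data. The number of arrays limits the precision, and each label names a separate heart.

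The members and lists were chosen with earlier results of these data known. Of 119 entries in the role lists, 108 were measured. Genes named in the text were Ncoa2, the 10 members, any called gene of each role list or else its 3 with the smallest trended p, the 2 nearest genes of each member, and markers whose list moved with a result. The alternatives were a trended fit, a random variance model, each gene's own variance, the mean over a gene's probesets, no probesets with a cross-hybridisation suffix, a filter and a floor at 50, median centring, quantile normalization, a replicate block and leaving out each heart. Centring on cardiomyocyte markers, quantile normalization of the within-heart differences and 4 settings joined to the trended fit were added after seeing the data. Promoter windows came from RefSeq in GRCm38.p6. Plots used matplotlib 3.10.9 (Python 3.11.15).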

Additional observations from a re-analysis of the deposited data

Results flagged for a closer look

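With 80 groups of 4 hearts examined, chance alone would flag about 1 in 20. Cacna1c in KO replicate 4 stood apart from the other KO hearts, at 2074 against 2679.7 to 2705, a gap of 0.964 of the range of the group. Atp2b3, a plasma membrane calcium pump read at a dim signal, stood apart in WT replicate 2, at 3.79 against 45.8 to 64.4 in the other WT hearts, a gap of 0.88 of the range.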

How the results depend on the processing

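The 10 genes were called in 0 of the settings run, in either direction. Atp2a2 changed sign to -0.0029 under quantile normalization and to -0.29 with the mean of all probesets, in both fits. Slc8a1 changed sign to -0.031 with the mean of all probesets, in both fits, and to -0.12 when centred on cardiomyocyte markers, which also turned Casq2 to -0.028, Trdn to -0.034 and Hrc to -0.036. Leaving out each heart in turn, in both fits, moved Slc8a1 between -0.045 and 0.083, with -0.027 without WT replicate 3, -0.032 without KO replicate 2 and -0.0081 without KO replicate 4, Trdn between -0.0037 and 0.20, Atp2a2 between 0.077 and 0.27 and Hrc between 0.0076 and 0.18. Among within-heart differences, Slc8a1 minus Atp2a2 became 0.26, Cacnb2 minus Cacna1c 0.0036 and Pln minus Atp2a2 0.55 with the mean of all probesets, which weighs dim Atp2a2 probesets equally. Under quantile normalization, added after seeing the data, Slc8a1 minus Atp2a2 was 0.091 and Cacnb2 minus Cacna1c 0.0011. With each heart left out, Pln minus Atp2a2 ranged from 0.0076 to 0.10, Casq1 minus Casq2 from -1.29 to -0.56, Slc8a1 minus Atp2a2 ranged from -0.29 to 0.0052, Casq2 minus Ryr2 from -0.17 to 0.065 and Cacnb2 minus Cacna1c from -0.10 to 0.040. The cause of these changes was not tested. The count of pathway genes called higher went from 0 to 1, Tmem38b, in the trended fit, in that fit without KO replicate 4 (range over hearts 0 to 1), with quantile normalization (adjusted p 0.0467) and with the replicate block (adjusted p 0.0389), and was 0 in the trended fit with a floor of 50 (adjusted p 0.183) or the mean of all probesets (adjusted p 0.469). Hearts with the same replicate number correlated at 0.07, -0.08, -0.03 and 0.12, and 1 of 4 matched best with its own number. No pairing by number was seen, but 4 hearts in each genotype are too few to exclude it. With the replicate block the fit called 0 of the 10 genes, and Casq1 stayed at -0.89. Without probesets marked for cross-hybridisation Casq2 had no value. Signals near 50 are close to the dim end of the arrays, and 4 hearts in each genotype limit what can be detected.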
